A study of Mus musculus with 6 samples.

Results

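Liver-type genes of lipid handling, detoxification and secretion were examined for alternative splicing in mouse medullary thymic epithelial cells (mTECs) after knockdown of Raver2 or Setd2. Members were all genes listed in any library whose symbol began with 1 of 19 family prefixes, from Cyp and Ugt to Abc and Agpat, leaving out Serpinh1, Mup1 and Apoc3. There were 39 such genes of 2898 listed. Of these, 29 genes with 53 events could be compared across all libraries, and 10 could not.

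Splicing was measured as inclusion frequency, a fraction from 0 to 1 that was deposited for each alternative event and library. There were 3 groups of 2 RNA sequencing libraries, all from primary mTECs of unstated age and strain. The Raver2 knockdown libraries carried the hairpins sh1 and sh2 against Raver2, whose product binds RNA and the splicing repressor PTB. The Setd2 knockdown libraries carried sh1 and sh2 against Setd2, whose product methylates histone H3 on genes being transcribed. Both control (Ctr) libraries carried a hairpin against bacterial LacZ. Every group shared the lentiviral vector with GFP, the co-culture with human dermal fibroblasts in fibrin gel, and the sort for living cells with MHC class II and GFP at day 5 after infection. Separate animals or cultures are not stated for the libraries of a group, so the p-values speak of the spread among these 6 libraries alone, and that spread may be technical. Each knockdown library had its own hairpin, and that spread includes the difference between hairpins.

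The liver is the main site of xenobiotic metabolism. Cytochromes P450, dehydrogenases and esterases first modify a compound, transferases then conjugate it, and ABC transporters export it, while acyl-CoA synthetases, apolipoproteins and phospholipases handle lipids. Serpins and major urinary proteins are secreted in bulk by hepatocytes. In the thymic medulla, mTECs are known to transcribe many such tissue-restricted genes at low level, partly under Aire, so that developing T cells meet them as self antigens. The family prefixes also took in genes with other work: Apobec1 and Apobec3 are cytidine deaminases, Apoo belongs to a complex of the mitochondrial inner membrane, and Abcc9 is a subunit of a potassium channel. No gene with the prefix Ugt, Sult, Acot, Acad, Akr or Agpat was listed, so 13 of the 19 prefixes had a member.

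Each library listed between 4777 and 4949 events, from 2765 to 2857 genes. Neither Raver2 nor Setd2 had a listed event, so the extent of the knockdowns is not known from these values. Listed events covered 2 of 10 markers of medullary epithelium (Aire and Cd74), 1 of 10 of fibroblasts (Postn), 4 of 10 of leukocytes (Ptprc, Cd8a, Lck and Cd68) and 2 of 10 of hepatocytes (Fga and Ahsg). A listed event is not a level of expression, and the cell type could not be checked further. The fractions came without read counts, so the depth behind each is unknown. Events were known by gene symbol alone and carry numbers that follow the row order within a gene. Whether a number stands for the same event in every library was not tested.

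Because the events carried no coordinates, which exon each concerns is not known here. For Abcc9 and Pla2g6, on which several results below turn, the GENCODE M21 annotation of mm10 gives coding exons that some transcripts skip. They are shown as the cassette exons these genes are annotated to have, not as the exons measured. Capitals mark the exon, lower case the 9 bases of the neighbouring exons on each side, and all are on the minus strand. The first is exon 18 of 40 in an Abcc9 transcript (chr6:142648027-142648065, 39 bases, 13 codons long), the second exon 16 of 41 in another (chr6:142658498-142658602, 105 bases), and the third exon 9 of 17 in a Pla2g6 transcript (chr15:79304305-79304469, 165 bases).
Abcc9 exon of 39 bases: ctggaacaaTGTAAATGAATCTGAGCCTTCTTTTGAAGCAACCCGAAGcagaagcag
Abcc9 exon of 105 bases: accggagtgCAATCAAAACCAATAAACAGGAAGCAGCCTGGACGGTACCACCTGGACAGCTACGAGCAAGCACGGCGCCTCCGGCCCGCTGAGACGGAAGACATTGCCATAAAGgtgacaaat
Pla2g6 exon of 165 bases: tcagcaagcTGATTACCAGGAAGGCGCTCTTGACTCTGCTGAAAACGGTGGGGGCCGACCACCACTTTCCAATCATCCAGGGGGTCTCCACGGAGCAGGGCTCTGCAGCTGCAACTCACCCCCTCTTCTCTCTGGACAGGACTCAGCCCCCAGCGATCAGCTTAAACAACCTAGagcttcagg
The length of each is a multiple of 3, so skipping keeps the reading frame. Of the 29 compared members, 13 had at least 1 annotated cassette exon, 21 exons in all. Some of those 21 have a length that is not a multiple of 3, such as an Apobec1 exon of 28 bases.

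Few member events passed the test in any comparison. A single event, event 1 of Abcc9, rose under Raver2 knockdown against Ctr and under Setd2 knockdown against Ctr (limma over all 4658 events, Benjamini-Hochberg adjusted p under 0.05). That is 1 of 53 member events, or 1.89%, in each comparison, against 2.43% and 2.23% of all events, so the members were called about as often as the rest of the table. Of all events, 1.01% were called higher under Raver2 knockdown and 0.880% under Setd2 knockdown. Between Raver2 and Setd2 knockdown, limma called 0 member events against 0.730% of all events, with 5 member events (9.43%, against 6.12% of all events) at an unadjusted p under 0.05.

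The median change of the members lay near 0 in both comparisons with Ctr. It was 0.000262 under Raver2 knockdown and 5.77e-05 under Setd2 knockdown, beside medians of -8.92e-07 and 3.08e-11 over all events. The median absolute change was 0.0315 and 0.0294 for members, against 0.0423 and 0.0412 for all events. The libraries of the groups did not overlap in 21 member events (39.6%) for Raver2 knockdown against Ctr, 19 (35.8%) for Setd2 knockdown against Ctr and 18 (34.0%) between the knockdowns, where 44.0%, 42.5% and 33.8% of all events lay apart. The 53 member events counted here include 7 that repeat the values of an earlier event. Some events lay apart by very little at an end of the scale, as Pla2g10 event 1 did (2.9e-05 for Setd2 knockdown minus Ctr). Both comparisons with Ctr use the same Ctr libraries, so their values for a member are not independent.

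**Figure D1:**
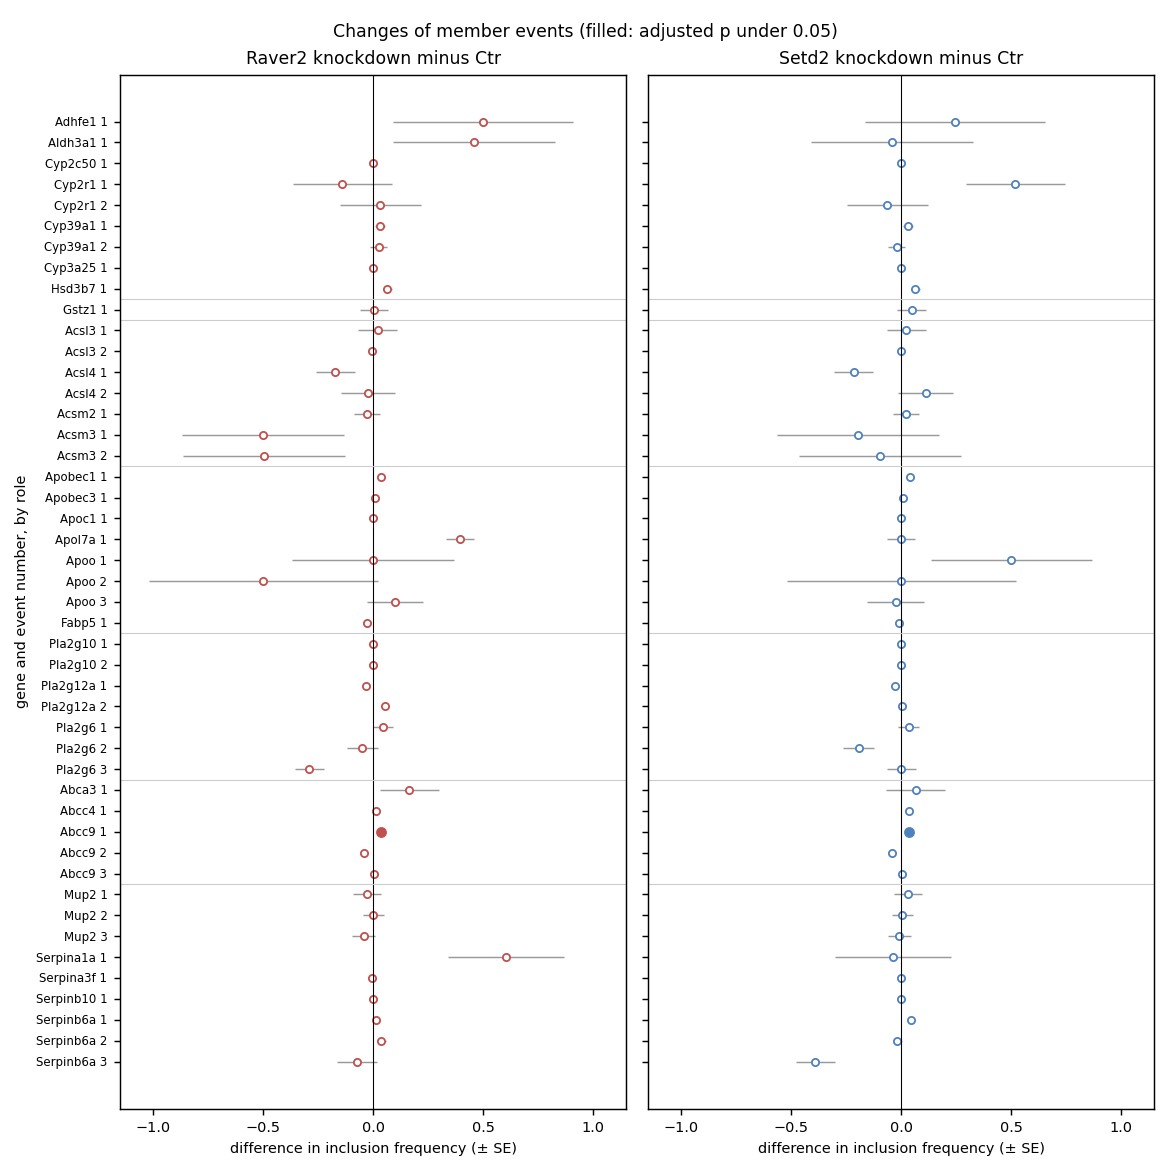
Difference in inclusion frequency from Ctr for the 46 member events with distinct values, on the horizontal axis with its standard error, under Raver2 knockdown (left) and Setd2 knockdown (right); rows are events grouped by role. Abcc9 event 1 is the only filled point in each panel, with changes of 0.0366 and 0.0360; the widest bars belong to events that differ fully between libraries of a group.

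Among the transporters, Abcc9 encodes the sulfonylurea receptor SUR2, the regulatory subunit of ATP-sensitive potassium channels (chromosome 6, 142587862 to 142702315, minus strand, 6 annotated transcripts). Inclusion of its event 1 was above 0.99 in all 4 knockdown libraries, with means of 0.999 ± 0.000573 under Raver2 knockdown and 0.999 ± 0.00145 under Setd2 knockdown (SD, n = 2), and was 0.961 and 0.965 in the Ctr libraries. The knockdown libraries lay above both Ctr libraries. The change was 0.0366 ± 0.00304 for Raver2 knockdown (SE; limma, adjusted p = 0.0250) and 0.0360 ± 0.00304 for Setd2 knockdown (adjusted p = 0.0281), and the knockdowns did not differ by test (difference 0.000618 ± 0.00304, adjusted p above 0.99). Event 2 of Abcc9 had 0.00931 and 0.00107 in Raver2 libraries, 0.00256 and 0.00936 in Setd2 libraries, and 0.0522 and 0.0417 in Ctr libraries. All 4 knockdown libraries lay below Ctr without passing (adjusted p = 0.0752 and 0.0825). Events 1 and 2 summed to 1.01 or less, and at least 1, in every library, so they are near complements and may be a single measurement. Event 3 was 0.987 or higher in all 6 libraries. The calls of event 1 were lost without a variance trend (adjusted p = 0.0549 for Raver2 and 0.0623 for Setd2 knockdown), in the fits of only the 4 libraries compared (0.0669 and 0.0872), and without any 1 of the 4 knockdown libraries (0.0685 to 0.0854 and 0.0799 to 0.0875). They held without either Ctr library.

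The other transporters did not pass. Abca3, which loads lipid into lung surfactant, was 0.831 and 0.944 in Raver2 libraries, 0.873 and 0.704 in Setd2 libraries, and 0.573 and 0.874 in Ctr libraries, so the groups overlapped. Abcc4, an exporter of organic anions and cyclic nucleotides, was at 0.956 or higher in every library.

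Of the lipid carriers and genes of the same prefixes, Apol7a, of the apolipoprotein L family, had its high values in the Raver2 libraries (chromosome 15, 77388219 to 77399110, minus strand). Its event was 0.481 and 0.306 in the Raver2 libraries and below 0.01 in both Setd2 and both Ctr libraries. The difference was 0.393 ± 0.0643 from Ctr (SE; limma, adjusted p = 0.122) and 0.393 ± 0.0643 from Setd2 knockdown (adjusted p = 0.273), neither of which passed. With log2 odds in place of fractions both passed (adjusted p = 0.0129 and 0.0252), and on the arcsine square root scale only that against Ctr did (adjusted p = 0.0352). Neither passed without a variance trend (0.138 and 0.331) or with only the 4 libraries compared (0.249 and 0.507). In fits that kept a single Raver2 library, that library was assumed to vary like the other groups. The difference of Apol7a from either other group was then 0.306 without Raver2 library 1 and 0.481 without Raver2 library 2. Of its 31-base words, 26.1% also occur in transcripts of other genes, so reads of relatives could have been assigned to it.

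Apobec1, the deaminase that edits apolipoprotein B mRNA, had 0.0261 and 0.0424 in Raver2 libraries, 0.0191 and 0.0611 in Setd2 libraries, and below 0.01 in both Ctr libraries. The 4 knockdown libraries were the higher ones, and neither comparison passed (limma, adjusted p = 0.596 and 0.519). Fabp5, the epidermal fatty acid-binding protein, was 0.970 and 0.958 under Raver2 knockdown, 0.981 in both Setd2 libraries, and 0.980 and above 0.99 in Ctr. The Raver2 libraries were lowest (adjusted p = 0.409 against Ctr). Apobec3, an antiviral deaminase, and Apoc1, an apolipoprotein of triglyceride-rich particles, stayed at 0.0219 or below in all 6 libraries.

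Among the phospholipases, which release fatty acids from membrane lipids, the events of Pla2g6 had different libraries apart from Ctr. Pla2g6 encodes a calcium-independent enzyme (chromosome 15, 79286228 to 79328390, minus strand, 13 annotated transcripts). Its event 3 was 0.619 and 0.799 in Raver2 libraries and above 0.99 in both Setd2 and both Ctr libraries. The Raver2 libraries were thus the low ones, by -0.291 ± 0.0661 against Ctr (SE; limma, adjusted p = 0.233) and -0.290 ± 0.0661 against Setd2 knockdown (adjusted p = 0.519). On the log2 odds scale the difference from Ctr passed (limma, adjusted p = 0.0269), and that from Setd2 knockdown did not (0.0529). Neither difference passed on the arcsine square root scale (0.0701 and 0.154) or with only the 4 libraries compared (0.347 and 0.676). In fits that kept a single Raver2 library, that library was assumed to vary like the other groups. The difference from either other group was then -0.201 without Raver2 library 1 and -0.38 without Raver2 library 2. Event 2 of Pla2g6, repeated by event 4, was 0.376 and 0.397 in Raver2 libraries, 0.255 and 0.231 in Setd2 libraries, and 0.362 and 0.511 in Ctr libraries. Here the Setd2 libraries were the low ones, by -0.194 ± 0.0698 from Ctr (adjusted p = 0.449). Event 1 had means of 0.251, 0.239 and 0.206 under Raver2 knockdown, under Setd2 knockdown and in Ctr. Its Setd2 libraries (0.248 and 0.231) lay above both Ctr libraries (0.191 and 0.222) without passing (limma, adjusted p = 0.866). Its Raver2 libraries (0.305 and 0.197) overlapped with Ctr.

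Pla2g12a, a secreted phospholipase (chromosome 3, 129878606 to 129895825), had 2 events of low inclusion. Event 1 was 0.00801 and 0.0267 in Raver2 libraries, 0.0139 and 0.0271 in Setd2 libraries, and 0.0466 and 0.0533 in Ctr libraries. All knockdown libraries lay below Ctr (limma, adjusted p = 0.299 and 0.347). Event 2 was 0.0697 and 0.103 in Raver2 libraries, 0.0265 and 0.0488 in Setd2 libraries, and 0.0386 and 0.0284 in Ctr libraries. It was highest under Raver2 knockdown, without passing against Ctr (adjusted p = 0.337) or Setd2 knockdown (adjusted p = 0.763). Both events of Pla2g10, another secreted phospholipase, were below 0.01 in all libraries.

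**Figure D2:**
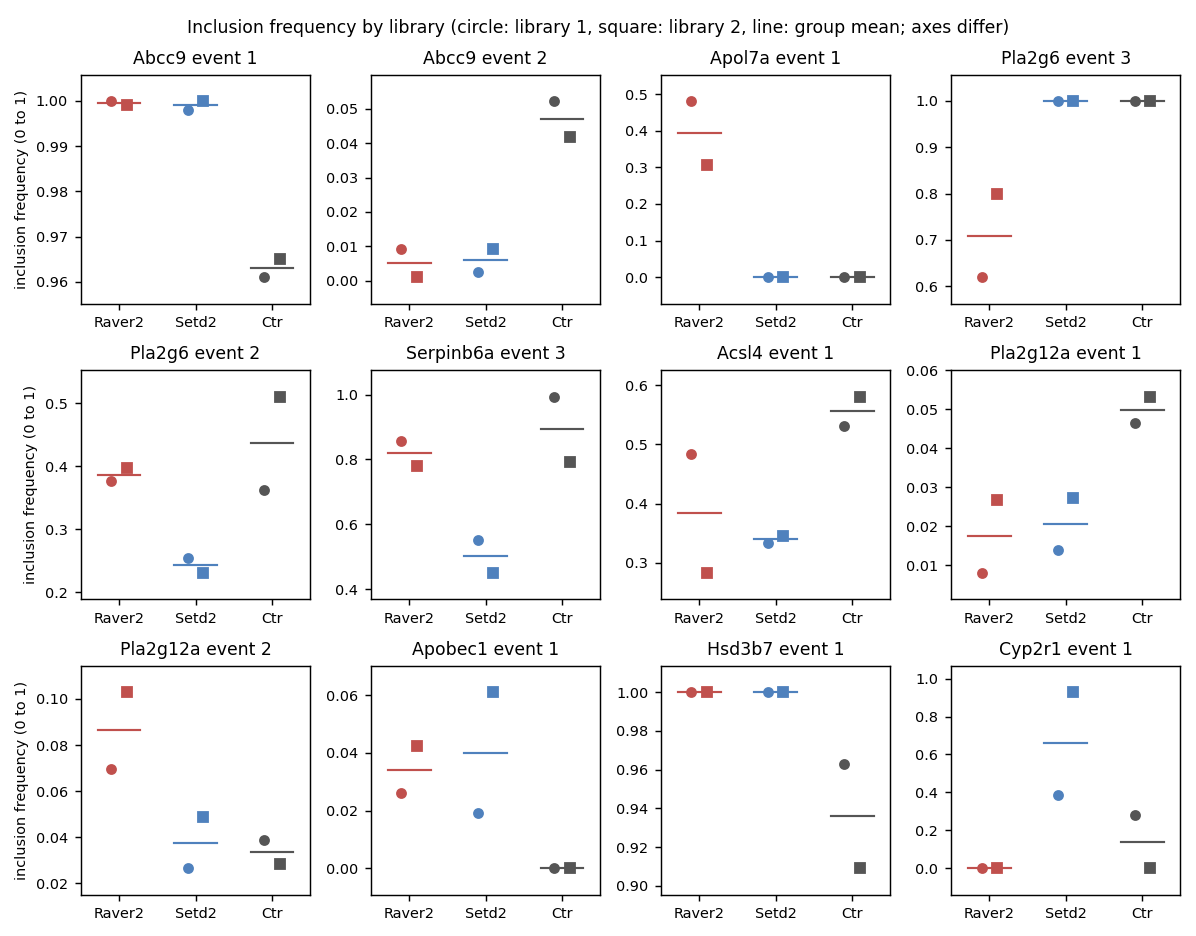
Inclusion frequency (vertical axis, 0 to 1, with a range of its own in each panel) of 12 member events in the 6 libraries; circles and squares are library 1 and 2 of a group and lines are group means. Apol7a event 1 (0.481 and 0.306) and Pla2g6 event 3 (0.619 and 0.799) stand apart in the Raver2 libraries, and Serpinb6a event 3 (0.552 and 0.451) in the Setd2 libraries; of the events shown only Abcc9 event 1 passed the test.

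Fatty acid activation was represented by acyl-CoA synthetases. Acsl4, which prefers arachidonate (chromosome X, 142317993 to 142390535, minus strand), had 0.484 and 0.283 for event 1 in Raver2 libraries, 0.333 and 0.346 in Setd2 libraries, and 0.531 and 0.581 in Ctr libraries. Every knockdown library lay below both Ctr libraries, by -0.172 ± 0.0890 and -0.217 ± 0.0890 on average (SE; limma, adjusted p = 0.632 and 0.516). Event 2 of Acsl4 ranged from 0.510 to 0.830 and overlapped between each knockdown and Ctr. Acsl3, a relative on the endoplasmic reticulum and lipid droplets, had means of 0.271, 0.275 and 0.252 for event 1 under Raver2 knockdown, under Setd2 knockdown and in Ctr, closer to each other than the libraries within a group. Acsm2, a medium-chain synthetase, had means of 0.0997, 0.148 and 0.127 in the same groups. Both events of Acsm3, another medium-chain synthetase, were above 0.99 in 1 Ctr library and below 0.01 in the other. They were below 0.01 in Raver2 libraries and between 0.292 and 0.408 in Setd2 libraries (adjusted p = 0.969 or more between the knockdowns).

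Several enzymes of the first phase of metabolism disagreed widely between libraries of a group. Cyp2r1, the vitamin D 25-hydroxylase, was below 0.01 in both Raver2 libraries for event 1, 0.389 and 0.929 in Setd2 libraries, and 0.281 and below 0.01 in Ctr libraries. The Setd2 libraries were the high ones, with a difference of -0.658 ± 0.225 for Raver2 minus Setd2 knockdown (SE; limma, adjusted p = 0.800) and 0.518 ± 0.225 for Setd2 knockdown minus Ctr (adjusted p = 0.537). Event 2 of Cyp2r1 was 0.799 and 0.929 in Raver2 libraries, 0.540 and above 0.99 in Setd2 libraries, and 0.910 and 0.756 in Ctr libraries, which overlapped. Hsd3b7, a dehydrogenase of bile acid synthesis, was above 0.99 in all knockdown libraries and 0.963 and 0.909 in Ctr libraries (adjusted p = 0.376 for Raver2 and 0.370 for Setd2 knockdown). Neither comparison passed on the arcsine square root scale (limma, adjusted p = 0.126 and 0.122) or on the log2 odds scale (0.103 and 0.104). In fits that kept a single Ctr library, that library was assumed to vary like the other groups. The change of Hsd3b7 in both comparisons was then 0.0915 without Ctr library 1 and 0.037 without Ctr library 2. Of its 31-base words, 74.8% also occur in transcripts annotated to other genes.

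Cyp39a1, an oxysterol hydroxylase of bile acid synthesis, stayed at 0.908 or higher in both events. Cyp2c50 and Cyp3a25, P450s of the liver, were below 0.01 throughout. Aldh3a1, an aldehyde dehydrogenase, and Adhfe1, a mitochondrial transhydrogenase, were each above 0.99 in Raver2 library 2 and below 0.01 in Raver2 library 1. In Setd2 libraries Aldh3a1 was below 0.01, and Adhfe1 was 0.495 and below 0.01. In Ctr libraries Aldh3a1 was 0.0888 and below 0.01, and Adhfe1 was below 0.01 in both. Gstz1, an enzyme of tyrosine breakdown and the only conjugating transferase compared, had 0.975 and 0.821, 0.913 and 0.970, and 0.929 and 0.862 in Raver2, Setd2 and Ctr libraries, which overlapped.

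Among the protease inhibitors and carriers, Serpinb6a, an intracellular serpin (chromosome 13, 33917918 to 34002794, minus strand, 17 annotated transcripts), had its largest difference under Setd2 knockdown in event 3. Its event 3 was 0.858 and 0.780 in Raver2 libraries, 0.552 and 0.451 in Setd2 libraries, and 0.994 and 0.792 in Ctr libraries. The Setd2 libraries were the lowest, by -0.391 ± 0.0888 from Ctr (SE; limma, adjusted p = 0.220), with 0.318 ± 0.0888 for Raver2 minus Setd2 knockdown (adjusted p = 0.649). Event 1 of Serpinb6a was 0.0222 and 0.0224, 0.0395 and 0.0660, and 0.000397 and 0.0201 in Raver2, Setd2 and Ctr libraries, with the Setd2 libraries the highest (adjusted p = 0.325 against Ctr).

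Serpina1a, an alpha-1 antitrypsin of mouse liver, was 0.282 and above 0.99 in Raver2 libraries, below 0.01 in both Setd2 libraries, and below 0.01 and 0.0764 in Ctr libraries. The Raver2 libraries were the high ones but differed widely from each other (difference from Ctr 0.603 ± 0.265, SE; limma, adjusted p = 0.549). The size rested on the library kept: the difference from Ctr was 0.962 without Raver2 library 1, which passed (adjusted p = 0.0195), and 0.244 without Raver2 library 2, which did not (adjusted p = 0.200). Of its 31-base words, 65.2% occur in transcripts of other genes. Mup2, a major urinary protein, listed 9 events with 3 distinct sets of values, between 0.113 and 0.312 in all libraries. For event 1, Mup2 had means of 0.182, 0.240 and 0.209 under Raver2 knockdown, under Setd2 knockdown and in Ctr. All 31-base words of Mup2 occur in other genes, so its fractions cannot be assigned to this gene with certainty. The same limit holds in part for Cyp2c50 (47.3% of its words shared), Cyp3a25 (46.6%), Apoo (43.3%), Fabp5 (33.1%) and Serpina3f (27.3%), and in every other compared member not given such a share above, under 10% of the words were shared. Serpina3f and Serpinb10 were at 0.989 or higher throughout.

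Disagreement within groups was common. Of the 46 member events with distinct values, 11 in Raver2, 13 in Setd2 and 12 in Ctr libraries differed by more than 0.1 between the libraries of the group (23.9%, 28.3% and 26.1%), where all events gave 22.9%, 25.5% and 27.7%. A difference above 0.9 was found in 2 events of the Raver2 pair (Aldh3a1 and Adhfe1), 2 of the Setd2 pair (events 1 and 2 of Apoo, high in library 2) and 3 of the Ctr pair (both Acsm3 events and event 2 of Apoo). Of all 4658 events, 162, 176 and 167 differed that much in the Raver2, Setd2 and Ctr pairs. Event 3 of Apoo was 0.237 and 0.239 in Raver2 libraries, 0.218 and 0.00871 in Setd2 libraries, and 0.278 and below 0.01 in Ctr libraries, so it was low in the libraries where event 2 was high. In contrast, 5 distinct member events (10.9%, against 10.5% of all events) sat at the same end of the scale in every library. A fraction below 0.01 or above 0.99 occurred in at least 1 library for 33 of all 53 member events (62.3%) and for 57.1% of all events. Those 53 include 7 events of Mup2 and Pla2g6 that repeat earlier values, and none of the 33 is such a repeat. Of the 46 member events with distinct values, 13 had every fraction between 0.01 and 0.99, against 2000 of all 4658 events, repeats included.

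Members that were not listed alike in every library were 10 of 39, or 25.6%, where 7.35% of all genes were not comparable. These were 4 carboxylesterases (Ces2a, Ces2e, Ces3a and Ces3b), Cyp4a31, a fatty acid hydroxylase, Gsta3, a glutathione transferase, Hsd3b3, a steroid dehydrogenase, Abcg8, a sterol exporter, and the serpins Serpina1f and Serpina3a. Raver2 libraries listed 8 and 6 of the 10, Setd2 libraries 4 and 3, and Ctr libraries 7 and 10. The other 203 genes without the same events in all libraries were listed at 65.0% and 65.0% in Raver2, 57.1% and 37.9% in Setd2, and 70.9% and 79.8% in Ctr libraries, so the Setd2 libraries listed fewest in both sets. How a gene came to be listed is not given in the sources used here. In bulk samples, fewer cells that express a gene and less RNA per cell cannot be told apart, and the part of sequencing depth was not tested.

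**Figure D3:**
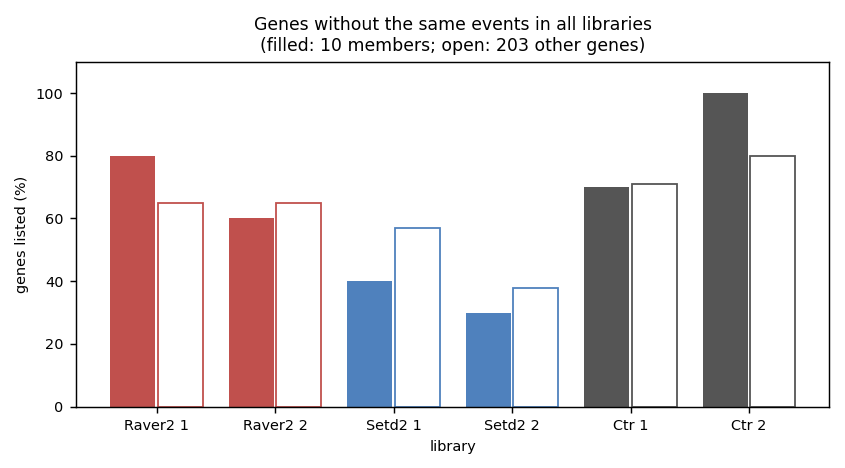
Share of genes listed (vertical axis, percent) in each library, for the 10 members not listed alike in every library (filled) and the 203 other such genes (open). Setd2 libraries listed 40.0% and 30.0% of these members, Raver2 libraries 80.0% and 60.0%, and Ctr libraries 70.0% and 100%.

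Ces2a, Ces3a, Ces3b and Serpina1f were below 0.01 wherever listed. Ces2e was above 0.99 in Raver2 library 1, 0.584 in Setd2 library 1, and 0.235 and 0.266 in Ctr libraries. Cyp4a31 was 0.0867 in Raver2 library 1 and below 0.01 in the other libraries that listed it. Event 1 of Abcg8 was 0.957 and above 0.99 in Raver2 libraries and above 0.99 in the single Ctr library that listed it. Its event 2 was above 0.99 in Raver2 library 1 and below 0.01 in Raver2 library 2 and that Ctr library. Event 1 of Gsta3 was below 0.01 in both Raver2 libraries and the single Setd2 library that listed it, against 0.139 and 0.115 in Ctr libraries. Its event 2 was below 0.01 and above 0.99 in the Raver2 libraries, below 0.01 in that Setd2 library, and 0.188 and 0.0595 in Ctr libraries, so the Raver2 libraries lay on both sides of Ctr. Hsd3b3 was 0.00932 in the single Raver2 library that listed it, 0.0791 and 0.111 in Setd2 libraries, and 0.00436 and above 0.99 in Ctr libraries. Serpina3a was listed in Ctr library 2 only, above 0.99. These values were not tested. Shared 31-base words made up 30.6% of those of Ces2a, 41.9% for Ces3a, 35.6% for Ces3b, 36.6% for Hsd3b3 and 32.0% for Cyp4a31.

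Related genes outside the prefixes gave little more. Of 33 nuclear receptors and regulators such as Nr1h4 and Nr1i2, 8 were compared, with 0 of 13 events called in any comparison. Of 58 genes of lipid synthesis, uptake and oxidation, 11 were compared with 0 of 14 events called, and of 18 other genes of drug metabolism, 4 were compared with 0 of 5 events called. At an unadjusted p under 0.05 these 3 lists held 4, 1 and 0 events for Raver2 knockdown, 3, 1 and 1 for Setd2 knockdown, and 1, 1 and 0 between the knockdowns (limma). For the nuclear receptors and regulators that was 30.8%, 23.1% and 7.69% of 13 events, and for the lipid genes 7.14% of 14 events in each comparison. For the drug metabolism genes it was 0%, 20% and 0% of 5 events. Of all events, 12%, 11.6% and 6.12% had such a p. With so few events in each list, 1 event more or less moves these shares widely. Of 43 other liver-secreted proteins, 4 were compared, and 1 of 4 events rose in both knockdowns. It was that of Kng2, a kininogen, which was above 0.99 in all knockdown libraries and below 0.01 in both Ctr libraries (limma, adjusted p = 0.00186 and 0.00246). No other event of this list had an unadjusted p under 0.05 (25% of 4 events for each knockdown, 0% between the knockdowns). Shared 31-base words were not counted for Kng2, and its call was not followed under the alternative settings. Over the 4 lists, 1 of 36 events was called for each knockdown (2.78%), near the share of all events.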

How the data were processed

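Each deposited table held a gene symbol and, per the file headers and labels, the inclusion frequency of a splicing event as a fraction from 0 to 1 for 1 library. Per the labels' protocols, a SMART-seq v4 kit amplified the total RNA and a Nextera XT kit made the libraries. The tools were TopHat2, Cufflinks and Trimmomatic 0.39 with mm10, per the submitters' processing notes; how the authors computed the fraction is not given in the sources used here. Fractions above 0 went down to 2.19e-288, values that no ratio of read counts gives, and no coverage was given.

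Events were matched by gene and row order where all 6 libraries listed the same number, giving 4658 events of 2685 genes. Without coordinates, an equal number does not show that matched rows hold the same event in every library. limma 3.58.1 (R 4.3.3) was fitted to the fractions of all 6 libraries with a mean per group and a variance trend, with two-sided contrasts and Benjamini-Hochberg adjustment over all events at 0.05. The analysis was tested on simulated fractions, where more of the called events were false than the threshold of 0.05 allows, so single calls are less sure than their adjusted p. Alternatives changed the scale (arcsine square root, or log2 odds with 0.01 added), the variance model, the events and the libraries. Positions and transcripts came from GENCODE M21, which matched all 39 symbols; shared 31-base words were counted over its transcripts, overlapping genes included. Tables were read with Python 3.11.15 and pandas 2.3.3.

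The members and lists were chosen with earlier results of these data known. Named events were those past the threshold, the 8 of largest moderated t per comparison with 1 per gene, the 3 widest per role with all fractions from 0.01 to 0.99, and the 2 genes per role with most events. Other members are named only to account for all of them.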

Additional observations from a re-analysis of the deposited data

Results flagged for a closer look

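Event 2 of Serpinb6a was the member event whose knockdown libraries lay on opposite sides of both Ctr libraries. It was 0.134 and 0.0795 in Raver2 libraries, 0.0488 and 0.0542 in Setd2 libraries, and 0.0643 and 0.0765 in Ctr libraries. The difference of Raver2 minus Setd2 knockdown was 0.0554 ± 0.0208 (SE; limma, unadjusted p = 0.061, adjusted p = 0.869), which did not pass. No group had enough libraries to look for single outlying ones.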

How the results depend on the processing

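Counts of called member events were small and moved with the processing. For Raver2 knockdown against Ctr, 1 event was called, and 2 on the arcsine square root scale, 3 on the log2 odds scale, and 0 without a variance trend, among events with all fractions between 0.01 and 0.99, among genes with 1 event, and with only the 4 libraries compared. Of all events in each fit, 2.55%, 2.45%, 2.47%, 0.5%, 2.27% and 1.61% were called under these settings. For Setd2 knockdown against Ctr, the 1 call became 0 under those last 4 settings, where 1.89%, 0.3%, 2.21% and 0% of all events in the fit were called. Neither selection of events holds the Abcc9 event. Between the knockdowns, 0 became 1 on the log2 odds scale (Apol7a) and 2 with only the 4 libraries compared (both Acsm3 events), with 0.988% of all events called under each. Leaving out each library in turn gave 0 to 5 calls for Raver2 knockdown against Ctr, 0 to 5 for Setd2 knockdown against Ctr and 0 to 4 between the knockdowns, where a lone library was assumed to vary like the other groups. Calls over all events moved too, from 1.59% to 6.25%, 1.03% to 5.99% and 0.988% to 2.55%. The 5 member calls in each comparison with Ctr came without Ctr library 1, where 6.25% and 5.99% of all events were called. Besides Abcc9, the events called in these fits belonged to Acsm3, Aldh3a1, Apol7a, Apoo, Cyp39a1, Hsd3b7, Pla2g6 and Serpina1a; without Setd2 library 1 the single call for Setd2 knockdown against Ctr was Apoo in place of Abcc9. Other causes were not tested.

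With hairpin number as a replicate block, 0 of all 4658 events were called between the knockdowns, members included. Same-numbered Raver2 and Setd2 libraries showed little shared deviation (correlation 0.0146 across all 4658 events). Across the 2000 events with every fraction between 0.01 and 0.99, the correlation was 0.0356. Each target had a single pair of libraries, so these correlations cannot show whether same-numbered libraries shared a culture or preparation. Such sharing was not tested.

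Of 309 values for 24 named changes, 277 kept direction and side of the threshold, 19 passed anew, 12 no longer passed, all of them Abcc9 event 1, and 1 turned. That one was event 1 of Apoo between the knockdowns, -0.5 with all libraries, 2.89e-06 without Setd2 library 2, which alone held the high value, and -1 without Setd2 library 1. Depth is unknown, so fractions at the ends of the scale carry no counting error here.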
